A study of Rattus norvegicus with 19 samples.

Results

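The genes described are 10 markers of the mural cells of blood vessels, chosen by gene symbol among 14217 genes measured in the left ventricle of the rat. Of these, 5 are markers of pericytes (Rgs5, Kcnj8, Abcc9, Pdgfrb and Cspg4), 4 are contractile genes of smooth muscle (Acta2, Tagln, Myh11 and Cnn1), and Notch3 marks both cell types. RNA from 19 male rats of the strain Dahl salt sensitive (Harlan SS/Hsd), which become hypertensive on a salty diet, was hybridised to 1 Affymetrix array per sample. Every rat ate 6% NaCl from 6 weeks of age, so all groups share the salt load and no group on a low-salt diet enters the comparisons. The baseline group was untreated and taken at 11 weeks of age after 5 weeks of salt (n = 4). The other groups were taken at 15 weeks of age after 4 more weeks of salt with treatment. They received vehicle injections (n = 4), paricalcitol at 200 ng per intraperitoneal injection, 3 times a week (n = 4), enalapril from an osmotic pump at 90 ug a day together with vehicle injections (n = 3), or both drugs, here called the combination (n = 4). Paricalcitol activates the vitamin D receptor, and enalapril inhibits the angiotensin-converting enzyme, here at a low dose that the study design gives as chosen to avoid a fall in blood pressure.

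Pericytes wrap capillaries, and smooth muscle cells form the wall of arteries and arterioles. Pericytes are recruited to vessels by platelet-derived growth factor B from the endothelium, which binds the receptor encoded by Pdgfrb. Cardiac pericytes also carry an ATP-sensitive potassium channel, whose pore is encoded by Kcnj8 and whose regulatory subunit is encoded by Abcc9. Abcc9 is not specific to them: its product also pairs with that of Kcnj11 in the channel of ventricular cardiomyocytes. Smooth muscle contractile genes are driven by serum response factor (SRF) with its coactivator myocardin, which bind a DNA element known as the CArG box, and Notch3 is the receptor that maintains the mural cells of small arteries. In whole ventricle, fewer mural cells and less RNA per cell cannot be told apart.

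The promoters are shown because the contractile genes are known for the CArG box and the pericyte genes are not defined by it. Of the 10 genes, 7 had a promoter entry in RefSeq on GRCr8 (Rgs5, Kcnj8, Abcc9, Cspg4, Acta2, Cnn1 and Notch3). The 250 bases upstream of the start site were searched on both strands for CC, then 6 positions of which at least 5 are A or T, then GG. Such a match was present in 7.97% of 27457 rat promoters, and among the 7 it was found only in Acta2, in 2 places. The first, CCCTATATGG, lay 134 to 125 bases upstream of the start and the second, CCTTGTTTGG, 84 to 75 bases upstream. A match is a description of the letters, and no match says only that these letters are not in the window. The 140 bases before the start site follow, 5′ to 3′ along the gene, for Acta2 (chr1:241172504-241172643, minus strand) and for the pericyte genes Rgs5 (chr13:84380937-84381076, plus strand) and Kcnj8 (chr4:177246549-177246688, minus strand), with the CArG matches in capitals.
Acta2: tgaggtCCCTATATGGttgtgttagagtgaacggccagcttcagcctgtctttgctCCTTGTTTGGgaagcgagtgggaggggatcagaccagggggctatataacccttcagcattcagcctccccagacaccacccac
Rgs5: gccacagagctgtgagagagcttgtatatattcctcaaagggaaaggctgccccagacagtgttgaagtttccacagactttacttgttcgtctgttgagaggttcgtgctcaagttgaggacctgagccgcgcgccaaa
Kcnj8: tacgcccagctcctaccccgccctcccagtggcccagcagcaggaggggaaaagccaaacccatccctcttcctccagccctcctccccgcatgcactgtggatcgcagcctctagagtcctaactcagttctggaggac

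Kcnj8 and Abcc9, whose products form 1 channel, are neighbours on chromosome 4 of that assembly, with 0 genes annotated between them. Kcnj8 had its highest group mean with paricalcitol (8.52) and its lowest in vehicle (7.96). The order of Abcc9 over the groups depended on which of its 3 probe sets was read. The brightest, used below, was highest in the combination (11.02) and lowest in vehicle (10.75). The next was highest with paricalcitol (9.46) and lowest in vehicle (9.34), as Kcnj8 was. The faintest was highest at baseline (8.41) and lowest with paricalcitol (8.19).

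All levels below are log2 of the quantile-normalized intensity plus 16, with a floor of 4, and differences are the first group minus the second on that scale. The added 16 makes a difference understate the change of a faint gene. Levels of different genes come from different probes and are not compared with each other. Of the 10 genes, 9 had a mean above the median gene (7.07), and Cnn1, calponin, lay below it with a mean of 5.55. Over the 19 arrays, array medians were 43.6 to 72.6 intensity units before normalization, and any pair of arrays correlated at 0.958 to 0.985. Cardiomyocyte markers were bright in every group, with the intensities of 10 of 10 measured genes summing to 134000 to 153000 per array. Lep of fat and Tnni2 of fast skeletal muscle lay at the floor on all 19 arrays, but other genes of their lists carried signal. The sums per array were 14900 to 20100 for the 6 skeletal muscle genes and 58.7 to 182 for the 4 adipocyte genes. The numbers in the sample descriptions run in a block of their own within each group. The labels do not say what they stand for, and anything that they mark cannot be told apart from the group. A p-value here sets a group difference against the spread between arrays within groups, estimated over all 19 arrays unless fewer were fitted.

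The 5 pericyte genes were lower after 4 more weeks of salt with vehicle than at baseline, and none of the 4 contractile genes separated the groups in this way. All 5 pericyte genes were lower in every vehicle array than in any baseline array, where 4.02% of all genes did the same, while all 4 contractile genes and Notch3 overlapped. Over all 10 genes 8 were lower, as were 48% of all genes. The median difference was -0.40 for the pericyte genes and -0.15 for the contractile genes, against 0 for all genes. The contractile median depended on single arrays, at -0.05 without baseline replicate 1, -0.04 without baseline replicate 3, -0.05 without vehicle replicate 3, -0.27 without baseline replicate 4 and -0.25 without vehicle replicate 1. None of the 10 genes passed an adjusted p of 0.05 in limma, as 0.0844% of all genes did, and 3 of the 10, all pericyte genes, had an unadjusted p under 0.05, against 9.2% of all genes. The comparison holds 4 more weeks of age, salt and injections together.

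Rgs5, a regulator of G protein signalling by which cardiac pericytes are recognised, had levels of 10.37, 10.25, 10.56 and 10.54 at baseline and 9.66, 9.81, 9.77 and 9.92 in vehicle. The lowest baseline array thus stood well above the highest vehicle array. The difference was -0.64 (SE 0.16, 95% interval -0.99 to -0.29), a 0.641-fold level, with limma adjusted p = 0.177. Kcnj8, the channel pore, was tight at baseline with 8.39, 8.39, 8.48 and 8.43, and had 8.12, 7.87, 7.88 and 7.97 in vehicle. Again no array of one group reached the other. Its difference was -0.47 (SE 0.10, 95% interval -0.67 to -0.26), with limma adjusted p = 0.0768, the 35th smallest p of all genes. Fitted on only the 8 arrays of the 2 groups, Rgs5 and Kcnj8 did pass, with limma adjusted p = 0.0498 and adjusted p = 0.0464, and Rgs5 also passed with the red cell score of each array as a covariate, at adjusted p = 0.0362.

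Pdgfrb, the growth factor receptor, had levels of 8.18, 7.85, 7.68 and 7.65 at baseline and 7.23, 7.63, 7.31 and 7.60 in vehicle. The separation was narrow, 7.65 against 7.63 at its closest point. The difference was -0.40 (SE 0.16), with limma adjusted p = 0.427. Cspg4, the NG2 proteoglycan of the pericyte surface, had 8.16, 8.26, 8.02 and 8.15 at baseline and 7.82, 7.61, 7.90 and 7.80 in vehicle, and Abcc9 had 11.28, 10.98, 10.82 and 10.83 against 10.64, 10.79, 10.78 and 10.79. Both groups of arrays were apart for each gene, yet neither difference reached an unadjusted p under 0.05. Abcc9 has 3 probe sets, and the other 2 gave differences of -0.07 and -0.11 with overlapping groups, so its separation rests on the brightest of them.

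The contractile genes spread more within groups than between them. Acta2, smooth muscle actin, had levels of 10.08, 9.68, 10.50 and 9.68 at baseline and 10.23, 9.53, 9.94 and 9.56 in vehicle. Tagln, transgelin, an actin-binding protein, had 9.16, 8.86, 9.24 and 8.36 against 9.07, 8.51, 8.50 and 8.73, and the differences of the 4 contractile genes ran from -0.20 to 0.20. Both genes show the vehicle values lying inside or close to the baseline range. Of 15 other smooth muscle genes measured from a wider list 10 were lower, 7 of them at an unadjusted p under 0.05, against 5.05% of all genes. Myl9, the regulatory light chain, had -0.61 (SE 0.14, limma adjusted p = 0.13) and Cald1, caldesmon, -0.41 (SE 0.11, limma adjusted p = 0.186). Of 13 other pericyte genes 12 were lower and 7 had an unadjusted p under 0.05, with Anpep, a surface aminopeptidase, at -0.72 (SE 0.21, limma adjusted p = 0.242) and Steap4, a metalloreductase, at -0.53 (SE 0.17, limma adjusted p = 0.312).

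Among the regulators, Elk3, a partner of SRF, fell by 0.59 (SE 0.10, limma adjusted p = 0.0347) and was the only one of 7 measured SRF and myocardin genes that passed. Myocd, myocardin itself, had -0.23 (SE 0.15, limma adjusted p = 0.682). The platelet-derived growth factor list, which held the ligands Pdgfa, Pdgfc and Pdgfd and the receptor Pdgfra, was lower in 4 of 4 genes, with Pdgfd at the floor on 13 of 19 arrays, Pdgfa at -0.32 (SE 0.14, limma adjusted p = 0.491) and Pdgfc at -0.47 (SE 0.28, limma adjusted p = 0.67), and Notch pathway genes showed no common direction, with 4 of 11 higher and 6 lower. Of the other subunit genes of this channel family, Abcc8 had 0.33 (SE 0.11, limma adjusted p = 0.306) and Kcnj11 0.16 (SE 0.18, limma adjusted p = 0.883).

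Markers of several other cell types were also lower in vehicle than at baseline. The fibroblast list was lower in 11 of 12 genes, with a summed intensity of 29700 to 37700 at baseline and 23600 to 28500 in vehicle, which did not overlap. Its collagens Col1a1 and Col3a1 had -0.92 (SE 0.37, limma adjusted p = 0.44) and -0.64 (SE 0.27, limma adjusted p = 0.471). The endothelial list was lower in 7 of 10 genes, with sums of 6820 to 8220 and 6830 to 7240, and with the receptor Tie1 at -0.66 (SE 0.21, limma adjusted p = 0.285) and Emcn, endomucin, at -0.49 (SE 0.16, limma adjusted p = 0.312). Tek, the angiopoietin receptor of endothelium, had -0.32 (SE 0.09, limma adjusted p = 0.205). The macrophage list was lower in 9 of 10 genes (median -0.23, sums of 5300 to 9120 and 5400 to 6770), and the adipocyte list in 3 of 4 (median -0.41, sums of 119 to 181 and 58.7 to 121), the other gene, Lep, being at the floor on 19 of 19 arrays. The part of these 4 lists in the result was not tested. Red cell genes were lower in 5 of 5, with sums of 21200 to 23400 and 19100 to 23200. With the red cell score as a covariate Rgs5 had -0.72 (limma adjusted p = 0.0362) and Kcnj8 -0.46 (limma adjusted p = 0.0719), and the pericyte median was -0.38.

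**Figure D1:**
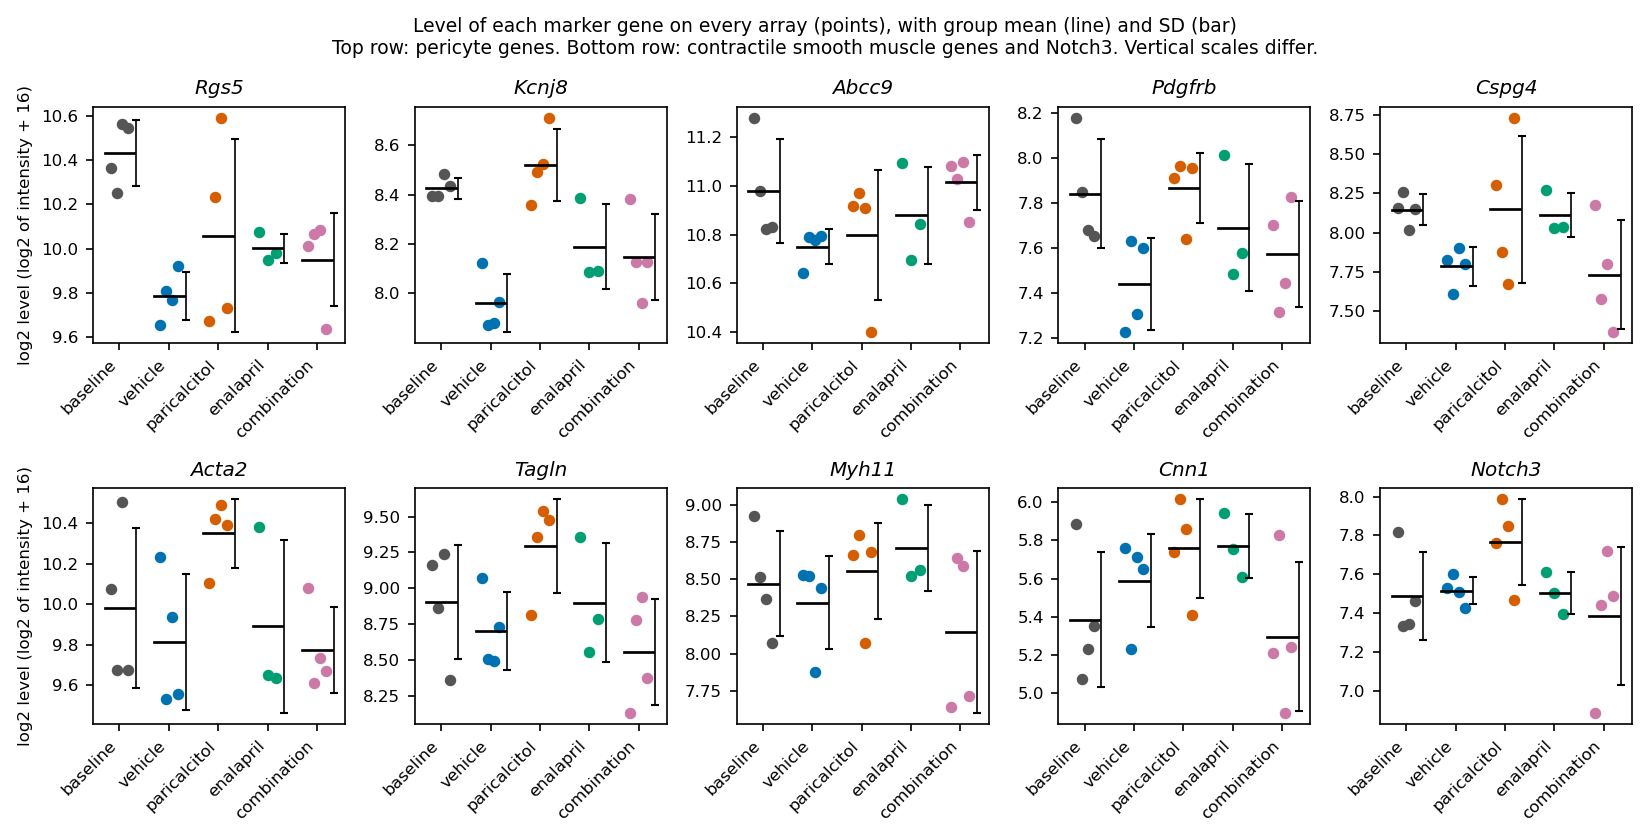
Log2 level (vertical axis, log2 of intensity plus 16) of each of the 10 marker genes on all 19 arrays, by group, with the group mean as a line and the SD as a bar. The vehicle arrays of Rgs5 and Kcnj8 lie below every baseline array, from 9.66 to 9.92 and from 7.87 to 8.12, whereas those of Acta2 and Tagln overlap the baseline arrays.

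Paricalcitol against vehicle asked what the vitamin D receptor agonist did on top of the salt diet. All 10 genes were higher with paricalcitol, with a median difference of 0.32 against 0 for all genes, of which 49.4% were higher. Over the alternatives and omitted arrays 9 to 10 of the markers were higher. The pericyte and contractile genes differed by similar amounts, with medians of 0.36 and 0.37. None passed an adjusted p of 0.05 in limma, as 0.0141% of all genes did, and 4 had an unadjusted p under 0.05, against 4.84% of all genes higher at that level. This comparison and the 2 with the other drug groups share the vehicle arrays.

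Kcnj8 came nearest. Its levels with paricalcitol were 8.36, 8.49, 8.53 and 8.71, all above the 4 vehicle arrays given above (highest 8.12). The difference was 0.56 (SE 0.10, 95% interval 0.36 to 0.76), a 1.48-fold level, with limma adjusted p = 0.0606, the 6th smallest p of all genes. It passed without the genes dimmer than the median, at limma adjusted p = 0.0452, and without paricalcitol replicate 1, at 0.62 and adjusted p = 0.0482. With the replicate number as a block it had limma adjusted p = 0.0498, and over all alternatives and omitted arrays the difference stayed between 0.48 and 0.62, with adjusted p from 0.0452 to 0.762.

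Pdgfrb was the other gene without overlap, with 7.91, 7.97, 7.64 and 7.96 with paricalcitol, the lowest of which barely cleared the highest vehicle array (7.63). The difference was 0.43 (SE 0.16), with limma adjusted p = 0.362, and 2.5% of all genes were higher without overlap. Rgs5 was divided within the group: replicates 2 and 3 had 10.23 and 10.59, just below and just above the baseline range. Replicates 1 and 4 had 9.68 and 9.73, within the vehicle range. Cspg4 was divided the opposite way, with 8.30 and 8.73 in replicates 1 and 4 and 7.88 and 7.67 in replicates 2 and 3. The red cell markers split along the same lines, with scores of 0.38 and 0.75 in replicates 1 and 4 and of -0.76 and -1.14 in replicates 2 and 3, and their part in this split was not tested. With the red cell score as a covariate the pericyte median was 0.40 and Kcnj8 had 0.57 (limma adjusted p = 0.0581). Abcc9, with 10.92, 10.97, 10.91 and 10.40, overlapped vehicle with a difference of 0.05, and its other probe sets had differences of -0.155 and 0.119.

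Of the contractile genes, Acta2 had 10.10, 10.42, 10.49 and 10.39 with paricalcitol. Of these, 3 exceeded every vehicle array and replicate 1 did not. The difference was 0.54 (SE 0.22), with limma adjusted p = 0.423. Tagln had 8.81, 9.36, 9.54 and 9.47, with replicate 1 again the lowest and inside the vehicle range. Its difference was 0.59 (SE 0.24), with limma adjusted p = 0.432. Myh11, the smooth muscle myosin heavy chain, Cnn1 and Notch3 were higher by 0.21, 0.17 and 0.25 with an unadjusted p above 0.05.

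The wider lists ran the same way. Of 15 other contractile genes 11 were higher, 6 of them at an unadjusted p under 0.05, with the smooth muscle actin Actg2 at 0.61 (SE 0.13, limma adjusted p = 0.0932) and Cald1 at 0.47 (SE 0.11, limma adjusted p = 0.128). Of 13 other pericyte genes 11 were higher, 6 at that level, with Steap4 at 0.87 (SE 0.17, limma adjusted p = 0.0805) and Anpep at 0.98 (SE 0.21, limma adjusted p = 0.108). Among the 7 SRF and myocardin genes 5 were higher, with Elk3 at 0.37 (SE 0.10, limma adjusted p = 0.204) and Mrtfa, a myocardin relative, at 0.21 (SE 0.11, limma adjusted p = 0.583). The endothelial list was higher in 9 of 10 genes, with a summed intensity of 7360 to 8990 against 6830 to 7240 in vehicle, which did not overlap. Emcn had 0.61 (SE 0.16, limma adjusted p = 0.209) and Tie1 0.43 (SE 0.21, limma adjusted p = 0.532). The fibroblast list was higher in 9 of 12 genes with sums of 22400 to 39800 against 23600 to 28500, with Ddr2 at 0.38 (SE 0.18, limma adjusted p = 0.531) and Col1a1 at 0.35 (SE 0.37, limma adjusted p = 0.831). The macrophage list was higher in 9 of 10 genes (median 0.13, sums of 4100 to 9070 against 5400 to 6770) and the adipocyte list in 3 of 4 (median 0.39, sums of 116 to 182 against 58.7 to 121). The part of these lists in the result was not tested.

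The VDR element, a direct repeat that the vitamin D receptor binds, was matched in 0.0947% of the rat promoters and in none of the 7 marker promoters. The motif GTGGGAA, bound by the Notch partner RBPJ and searched on both strands, was matched in 5.22% and also in none of the 7. With shares this low, no match among 7 promoters is the usual outcome for either motif and says nothing about these genes.

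**Figure D2:**
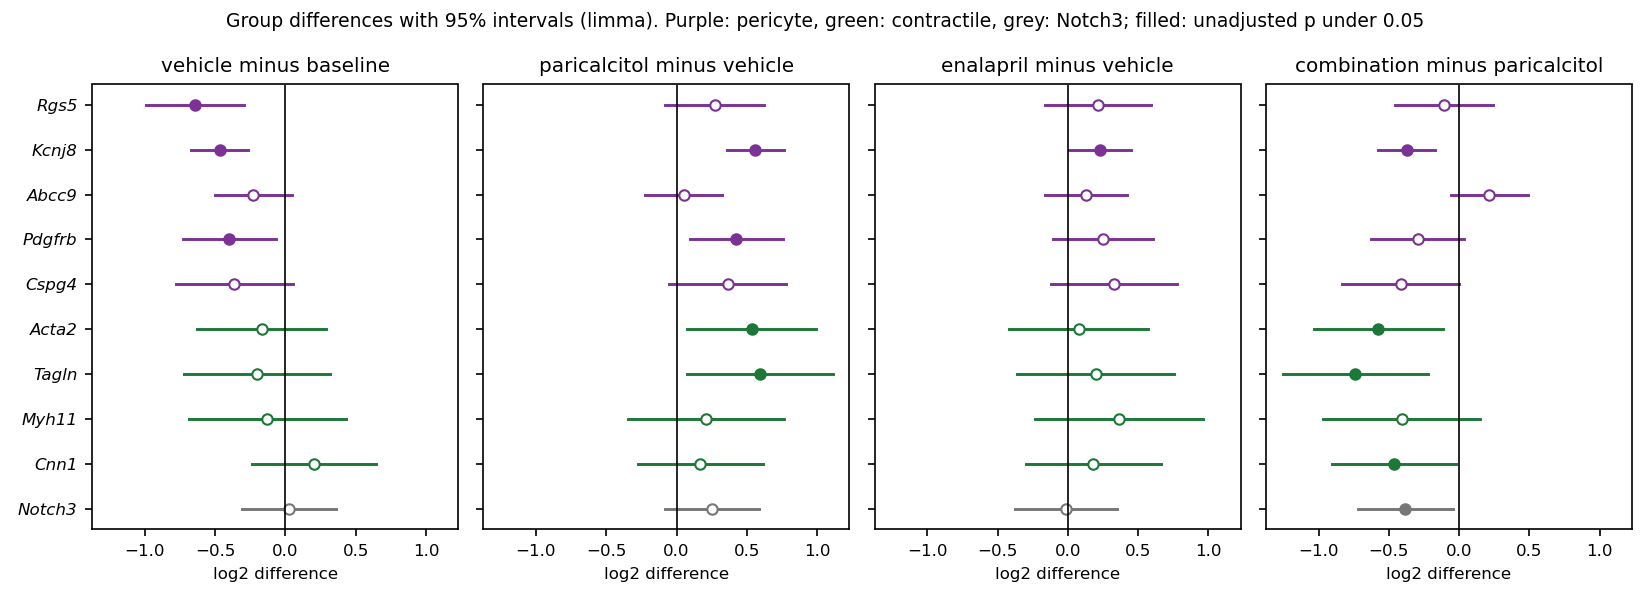
Log2 difference (horizontal axis) of each marker gene in 4 comparisons, with its 95% interval from limma; purple marks pericyte genes, green contractile genes and grey Notch3, and filled points had an unadjusted p under 0.05. Kcnj8 lies at -0.47 for vehicle minus baseline, at 0.56 for paricalcitol minus vehicle and at -0.37 for the combination minus paricalcitol.

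Enalapril against vehicle asked what the inhibitor did at this low dose. All 5 pericyte and 4 contractile genes were higher, as were 53.4% of all genes, with medians of 0.23 and 0.19, and Notch3 was level at -0.01. None passed in limma, as 0% of all genes did, and 1 of the 10 had an unadjusted p under 0.05, against 5.64% of all genes. Kcnj8 had 8.39, 8.09 and 8.09, of which only replicate 1 exceeded all vehicle arrays. The difference was 0.23 (SE 0.10, limma adjusted p = 0.873), and 0.13 without enalapril replicate 1. That array was also the highest of the group for the other pericyte and contractile genes, for example 10.38 against 9.65 and 9.64 for Acta2 and 8.01 against 7.48 and 7.58 for Pdgfrb, and without it the medians were 0.13 for the pericyte and 0.03 for the contractile genes. Without vehicle replicate 2 the contractile median was 0.10. The wider lists moved less, with 7 of 13 other pericyte genes higher and 6 lower (median 0.016). Their smallest p-values were those of Steap4 at 0.44 (SE 0.19, limma adjusted p = 0.84) and Rgs4 at -0.60 (SE 0.26, limma adjusted p = 0.852). Of 15 other contractile genes 11 were higher (median 0.075). Macrophage markers were higher in 9 of 10 genes (median 0.27, sums of 5630 to 8180 against 5400 to 6770 in vehicle), and their part in the result was not tested. Rgs5, with 10.08, 9.95 and 9.98, and Cspg4, with 8.27, 8.03 and 8.04, were above every vehicle array, where 4.33% of all genes were. Their differences, 0.21 and 0.33, had an unadjusted p above 0.05.

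In the combination against vehicle 4 of the 5 pericyte genes were higher (median 0.16), as were 50.9% of all genes, and all 4 contractile genes were lower (median -0.17), but none of the 10 had an unadjusted p under 0.05, against 7.68% of all genes, and none passed the adjusted threshold in limma, as 0.00703% did. Abcc9, with 11.08, 11.03, 11.10 and 10.85, was higher than all vehicle arrays, where 2.31% of all genes were. Its other probe sets had differences of -0.07 and 0.06. Leaving out vehicle replicate 1 or 3 or combination replicate 2 left 1 contractile gene higher, and the contractile median was -0.08 without vehicle replicate 1, -0.09 without combination replicate 1, -0.29 without combination replicate 2 and -0.07 without combination replicate 4. Of 13 other pericyte genes 11 were higher than in vehicle (median 0.24), and of 15 other contractile genes 8 were higher (median 0.03).

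Set against paricalcitol alone, the combination was lower in 9 of the 10 genes, as it was in 47.3% of all genes, with a median of -0.52 for the contractile and -0.30 for the pericyte genes. Abcc9 was the exception, at 0.22, and its other probe sets had differences of 0.08 and -0.06. None passed in limma, as 0% of all genes did, and 5 had an unadjusted p under 0.05, against 3.91% of all genes lower at that level. Acta2 in the combination was 10.08, 9.61, 9.73 and 9.67, so that its highest array just missed the lowest paricalcitol array (10.10). This difference was -0.58 (SE 0.22, limma adjusted p = 0.416), and 1.39% of all genes were lower without overlap.

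Tagln had the largest difference of the 10 in this comparison, -0.74 (SE 0.24, limma adjusted p = 0.352), from levels of 8.13, 8.78, 8.94 and 8.38. Kcnj8 had -0.37 (SE 0.10, limma adjusted p = 0.199) from 8.38, 8.13, 7.96 and 8.13, where replicate 1 alone reached the paricalcitol range. Cnn1, a calponin that binds actin, had 5.21, 5.83, 4.90 and 5.24, a difference of -0.46 (SE 0.21, limma adjusted p = 0.517). Notch3, with 6.88, 7.44, 7.72 and 7.49, had -0.38 (SE 0.16, limma adjusted p = 0.467), and -0.22 without combination replicate 1, its low array. Myh11 was split, with 7.64 and 7.71 in replicates 1 and 4 and 8.64 and 8.59 in replicates 2 and 3, and Tagln was low in the same 2 arrays. The red cell scores of those arrays were 0.54 and 0.67, against -1.13 and -0.99 in the others, and their part in the split was not tested. With the red cell score as a covariate the contractile median was -0.52. Of the 15 other contractile genes 12 were lower (median -0.28), led by Tpm2, a tropomyosin, at -0.59 (SE 0.17, limma adjusted p = 0.286) and Cald1 at -0.31 (SE 0.11, limma adjusted p = 0.378). Of the 13 other pericyte genes 11 were lower, but with a median of only -0.09. They were led by Anpep at -0.55 (SE 0.21, limma adjusted p = 0.443) and the transcription factor Foxs1 at -0.32 (SE 0.13, limma adjusted p = 0.458). Against enalapril alone the combination was lower in 9 of 10 genes and in 50.2% of all genes. Without enalapril replicate 1, 6 of the 10 were lower, and without combination replicate 1, 3 or 4, 8 were. The pericyte median of -0.05 ranged from -0.12 without combination replicate 1 to 0.04 without enalapril replicate 1. All 4 contractile genes were lower, with a median of -0.41 that ran from -0.535 to -0.251 over omitted arrays. None of the 10 had an unadjusted p under 0.05, against 5.3% of all genes, and none passed in limma, as 0% of all genes did. Of the 13 other pericyte genes 8 were higher and 5 lower than with enalapril (median 0.15). Rgs4 had 1.03 (SE 0.26, limma adjusted p = 0.736) and Vtn 0.46 (SE 0.18, limma adjusted p = 0.908). Of the 15 other contractile genes 10 were lower (median -0.04).

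The interaction asked whether the combination differed from the sum of both single drug differences. It was below 0 in 9 of 10 genes, with 51.4% of all genes below 0, and the medians were -0.54 for the pericyte and -0.71 for the contractile genes. Kcnj8 had -0.60 (SE 0.14, 95% interval -0.90 to -0.30, limma adjusted p = 0.394), the 17th smallest p of all genes. Tagln had -0.94 (SE 0.36, limma adjusted p = 0.615), Cspg4 -0.74 (SE 0.29, limma adjusted p = 0.615) and Pdgfrb -0.54 (SE 0.23, limma adjusted p = 0.645). These 4 had an unadjusted p under 0.05, against 3.14% of all genes below 0 at that level, and none passed in limma, as 0% of all genes did. Without enalapril replicate 1 the pericyte median was -0.38. For 13 other pericyte genes the interaction was below 0 in 9 (median -0.11), and for 15 other contractile genes in 13 (median -0.33).

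The drug groups were also set against baseline, which all 3 comparisons share. Rgs5 was lower in each, by -0.37 with paricalcitol (SE 0.16, limma adjusted p = 0.603, and -0.24 without paricalcitol replicate 1), -0.43 with enalapril (SE 0.18, limma adjusted p = 0.566) and -0.48 in the combination (SE 0.16, limma adjusted p = 0.293). In the combination Rgs5 had 10.01, 10.07, 10.09 and 9.64, so that these arrays and those of enalapril stayed below all baseline arrays, where 4.64% of all genes did so with enalapril and 2.76% in the combination. Kcnj8 was lower with enalapril (-0.24, SE 0.10, limma adjusted p = 0.582) and in the combination (-0.28, SE 0.10, limma adjusted p = 0.293), again without overlap with baseline, but 0.10 higher with paricalcitol, where the groups overlapped. At an unadjusted p under 0.05, 1 of the 10 was lower with paricalcitol, 2 with enalapril and 2 in the combination, against 4.01%, 4.59% and 4.73% of all genes. None of the 10 passed in limma against baseline, where the shares of all genes that did were 0.0281% with paricalcitol, 0.0141% with enalapril and 0.162% in the combination. Group means of Rgs5 thus ran from baseline (10.43 ± 0.15, SD, n = 4) to paricalcitol (10.06 ± 0.43, SD, n = 4), enalapril (9.95 to 10.08, n = 3), the combination (9.95 ± 0.21, SD, n = 4) and vehicle (9.79 ± 0.11, SD, n = 4), with the middle 3 closer to each other than their spread. Those of Kcnj8 ran from paricalcitol (8.52 ± 0.15, SD, n = 4) and baseline (8.43 ± 0.04, SD, n = 4), which overlapped, to enalapril (8.19 ± 0.17, SD, n = 3) and the combination (8.15 ± 0.17, SD, n = 4), which also overlapped, and vehicle (7.96 ± 0.12, SD, n = 4).

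The remaining levels complete the picture of the contractile class and Notch3. Myh11 had 8.92, 8.52, 8.37 and 8.07 at baseline, 8.53, 8.52, 7.88 and 8.44 in vehicle, 8.66, 8.80, 8.07 and 8.68 with paricalcitol and 9.04, 8.52 and 8.56 with enalapril. Cnn1 had 5.88, 5.08, 5.23 and 5.35 at baseline, 5.76, 5.23, 5.71 and 5.65 in vehicle, 5.74, 6.02, 5.86 and 5.41 with paricalcitol and 5.94, 5.75 and 5.61 with enalapril. These groups overlap throughout. Notch3 had 7.82, 7.33, 7.34 and 7.46 at baseline, 7.53, 7.60, 7.51 and 7.43 in vehicle, 7.76, 7.99, 7.85 and 7.46 with paricalcitol and 7.61, 7.50 and 7.39 with enalapril. Its replicate 1 at baseline and replicates 1 to 3 with paricalcitol were its 4 highest arrays. For enalapril, Abcc9 had 11.10, 10.70 and 10.85, Tagln 9.36, 8.56 and 8.79, and in the combination Pdgfrb had 7.70, 7.32, 7.44 and 7.83 and Cspg4 8.18, 7.58, 7.80 and 7.37. Pdgfrb and Myh11 each had further probe sets that carried almost no signal: the second of Myh11 lay at the floor on all 19 arrays, and the other 2 of Pdgfrb had group means of 4.00 to 5.06. A further 5 probe sets named both Acta2 and cardiac actin, Actc1, with group means of 11.83 to 14.08, and correlated with the Acta2 probe set at only -0.05 to 0.10 over the 19 arrays, so they were left out.

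Averaged over their genes, each centred on its mean, the 5 pericyte genes and the 4 contractile genes took different courses over the groups. The pericyte mean was 0.20 ± 0.08 (SD, n = 4) at baseline, -0.22 ± 0.05 (SD, n = 4) in vehicle, 0.11 ± 0.04 (SD, n = 4) with paricalcitol, 0.01 ± 0.17 (SD, n = 3) with enalapril and -0.09 ± 0.13 (SD, n = 4) in the combination. The contractile mean was -0.02 ± 0.29 (SD, n = 4), -0.09 ± 0.20 (SD, n = 4), 0.29 ± 0.13 (SD, n = 4), 0.11 ± 0.32 (SD, n = 3) and -0.26 ± 0.23 (SD, n = 4) in the same order. The 4 contractile genes thus varied more between the arrays of each group. The mean of the 15 other contractile genes was 0.11 ± 0.07 (SD, n = 4) at baseline, -0.10 ± 0.03 (SD, n = 4) in vehicle and 0.11 ± 0.17 (SD, n = 4) with paricalcitol. It was -0.03 ± 0.12 (SD, n = 3) with enalapril and -0.10 ± 0.07 (SD, n = 4) in the combination. Like the pericyte mean, it was lower in every vehicle array than in any baseline array. All vehicle arrays lay below all baseline arrays in the pericyte mean, which follows from the separation of each of the 5 genes. They also lay below all paricalcitol arrays in that mean, and all paricalcitol arrays lay above all combination arrays in the contractile mean. The contractile minus pericyte mean was -0.21 ± 0.25 (SD, n = 4) at baseline and 0.13 ± 0.23 (SD, n = 4) in vehicle, ranges that overlapped (-0.49 to 0.00 and -0.03 to 0.47).

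**Figure D3:**
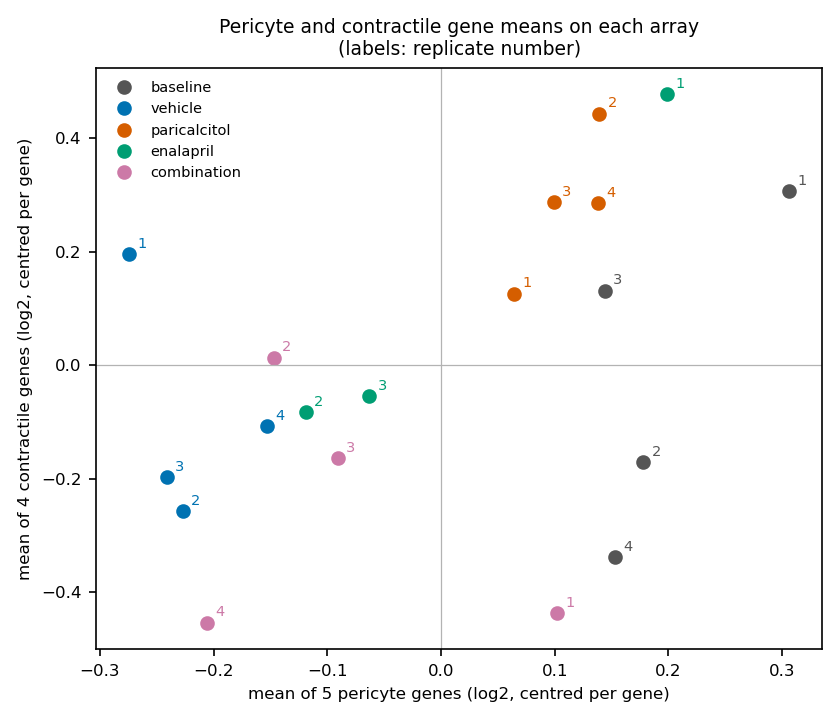
Mean of the 5 pericyte genes (horizontal axis) against the mean of the 4 contractile genes (vertical axis) on each array, in log2 units centred per gene, coloured by group and labelled by replicate. The vehicle arrays lie at the left, from -0.27 to -0.15, and the paricalcitol arrays together at the upper right, from 0.06 to 0.14 and from 0.13 to 0.44.

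Within a class, genes followed each other only in part. Over the 19 arrays the median Pearson r was 0.40 for the 6 contractile pairs, 0.36 for the 10 pericyte pairs and 0.21 for the 20 pairs across classes, and for deviations from group means it was 0.23, 0.11 and 0.14. These are descriptions over arrays that share their normalization. The closest pairs within groups were Kcnj8 with Acta2 (0.66), Tagln with Myh11 (0.58) and Acta2 with Tagln (0.57), so the closest pair of all crossed the classes. Kcnj8 and Abcc9, the 2 channel subunits, had r = 0.00 over all arrays and -0.21 within groups. Rgs5 and Cspg4 ran against each other within groups, at -0.47.

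**Figure D4:**
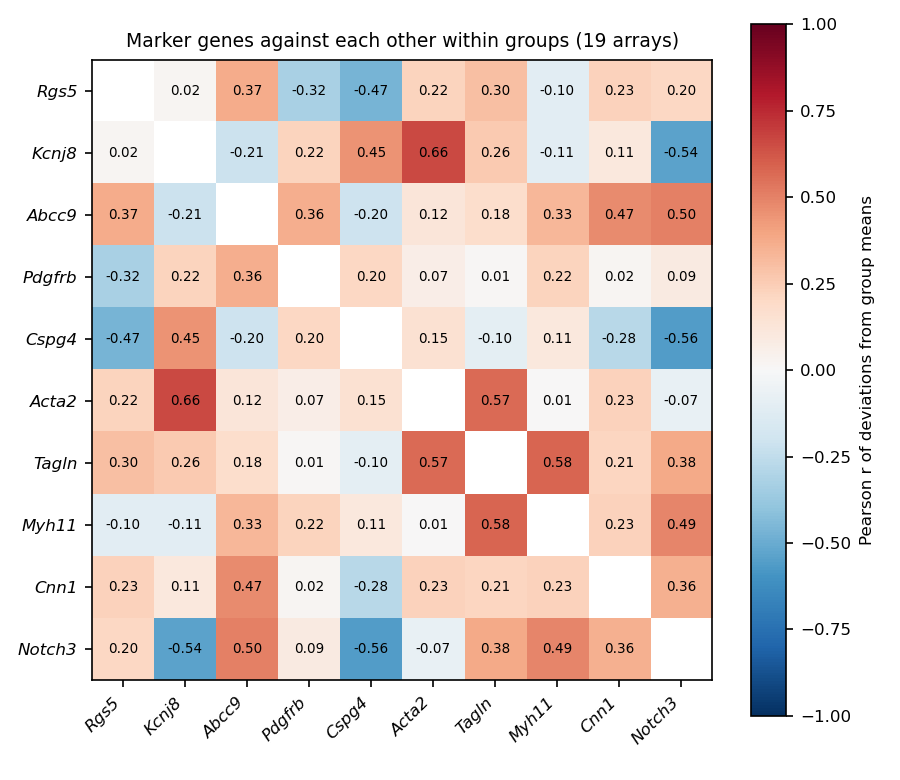
Pearson r between the deviations of 2 marker genes from their group means over 19 arrays, for each pair of the 10 genes, from -1 (blue) to 1 (red). The highest value is 0.66, for Kcnj8 with Acta2, and the lowest is -0.56, for Cspg4 with Notch3.

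Among all genes brighter than the median, those most like Rgs5 over the 19 arrays were Map4k4 (r = 0.77), Rpl7 (0.77), Sri (0.76), Sema6a (0.75) and Slc40a1 (0.75). Those most like Acta2 were Cep170b (r = 0.80), Tagln (0.73), Kcnj8 (0.71), Cyp26b1 (0.67) and Septin11 (0.66). None of the other 9 markers is among the 5 genes most like Rgs5, and 2 of them are among those most like Acta2.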

How the data were processed

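The authors deposited an intensity on a linear scale for each probe set of each array. The software that made it is not given in the sources used here. Values below 0 made up 16.0% to 18.2% of an array, so a background had been subtracted. All 31099 probe sets were quantile normalized together, negative values replaced by 0, 16 added and log2 taken. From 20826 probe sets that name 1 gene in the platform annotation, the brightest on average stood for each of 14217 genes. Group means over 19 arrays were modelled with limma (3.58.1, R 4.3.3), using moderated variances that follow a trend on mean level and Benjamini-Hochberg adjustment over all genes, and was tested on simulated data. The number of arrays limits the precision.

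The marker genes and the gene lists were chosen with earlier results of these data known. All 10 members are named, with a difference, SE and adjusted p where the unadjusted p was under 0.05, with the 2 genes of smallest p in a list spoken of and the 5 genes most like Rgs5 and Acta2. As an exception, several lists, the Notch, macrophage, adipocyte and red cell lists among them, are given by counts, medians or sums with no gene named. Replicate numbers paired the arrays (every correlation of deviations over 0.1) in 1 of 10 pairs of groups, paricalcitol with the combination. The labels do not pair rats. Alternatives covered normalization, pseudocounts of 4 and 64, dim genes, probe set choice, the variance trend, the samples fitted, red cell score, replicate block and omitted arrays. Promoter sequences are from RefSeq (GRCr8).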

Additional observations from a re-analysis of the deposited data

Results flagged for a closer look

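Of 40 groups of 4 arrays examined for the 10 markers, 4 had an array far from the other 3 by Dixon's criterion, which chance alone meets in about 1 group in 20. Rgs5 was low in combination replicate 4, at 9.64, where the others had 10.01 to 10.09. Abcc9 was low in vehicle replicate 1, at 10.64 against 10.78 to 10.79, and in paricalcitol replicate 4, at 10.4 against 10.91 to 10.97. Myh11 was low in vehicle replicate 3, at 7.88 against 8.44 to 8.53. The cause was not tested.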

How the results depend on the processing

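No difference of a marker with an unadjusted p under 0.05 changed sign. Of the medians over markers, which carry no test, 5 that lay between -0.06 and 0.12 changed sign in 12 settings, among them the combination against vehicle over all 10 genes (0.02 without vehicle replicate 1), paricalcitol against baseline over all 10 (-0.13 in deposited values) and enalapril against baseline for the contractile genes (-0.08 without enalapril replicate 1). The number of the 10 markers past the adjusted threshold stayed at its reported value of 0 in 199 of the settings tried over the 10 comparisons and moved in 5. In vehicle against baseline it became 2 with only the groups compared (Rgs5 and Kcnj8) and 1 with the red cell score as a covariate (Rgs5). In paricalcitol against vehicle it became 1 without the dimmer genes, 1 with the replicate block and 1 without paricalcitol replicate 1, in each case through Kcnj8, so that the range over omitted arrays was 0 to 1 there and 0 to 0 in the other comparisons. The replicate block left the count at 0 in the other 9 comparisons, the combination against paricalcitol among them. The cause was not tested. Deposited values without equalisation moved the median of all genes by -0.20 in vehicle against baseline and by 0.17 in enalapril against vehicle. The pericyte median in vehicle against baseline was then -0.65, and 0 of the 5 were higher. The contractile count was less stable: in vehicle against baseline 1 of 4 was higher, and 2 were higher without baseline replicate 1, baseline replicate 3 or vehicle replicate 3. Cnn1 was dimmer than the median gene and has no value where such genes were left out.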

Other observations

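Genes most like the other markers were looked up after the values had been seen. Cspg4 was most like Csrp3 (r = 0.88 over 19 arrays), Flnc (0.88) and Nol3 (0.85), which cardiomyocytes are known to express, followed by Ncl (0.83) and Hspb1 (0.83), and within groups its r with Csrp3 was 0.84. With the cardiomyocyte marker score Cspg4 had r = -0.20, and with Kcnj8, the closest of the other pericyte markers, 0.61. Abcc9 had its highest correlation with a cell marker score for cardiomyocytes (r = 0.52), while Rgs5 had it for fibroblasts (r = 0.54) and Pdgfrb for endothelium (r = 0.57). Tagln was most like Enpp3 (r = 0.76), Irag1 (0.76) and Tpm2 (0.73), followed by Acta2 (0.73) and Cald1 (0.69). Of pericyte genes outside the 10, with 13 measured, 12 were lower with enalapril than at baseline (median -0.37, against 0 for all genes). Of the 13, 5 were lower at an unadjusted p under 0.05, against 4.59% of all genes. The mean over the list was -0.19 ± 0.06 (SD, n = 3) with enalapril and -0.22 ± 0.14 (SD, n = 4) in vehicle, against 0.16 ± 0.21 (SD, n = 4) with paricalcitol.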
